A study of Mus musculus with 5 samples.

Results

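The genes described here are the Notch receptors, a Notch ligand and Notch target genes of mouse mesenchymal stem cells. The members were 7 genes chosen by symbol, namely the receptors Notch1, Notch2 and Notch3, the ligand Jag1 and the targets Hes1, Hey1 and Heyl. Of these, 6 had a row among the 12621 genes of the expression table and all 6 passed the filter on low values, while Heyl was not analysed here. Poly(A) RNA was sequenced from wild-type cells (2 libraries) and from cells lacking TSG-6, a secreted hyaluronan-binding protein encoded by Tnfaip6 (3 libraries). All samples carry the strain label Balb/c (C.129S6), and no treatment, age, passage or tissue of origin is given for either genotype, nor how the gene was disrupted. The wild-type columns of the table are C1 and SE and the knockout columns are C1, C2 and SE. No meaning is given for C or SE, and the design text names 2 biological replicates for each cell type. Whether any libraries share an animal or a culture is not labelled, and the p-values therefore reflect the spread among these libraries, which may be technical.

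Notch receptors are single-pass membrane proteins that are cut by an ADAM protease and then by gamma-secretase after they bind a ligand on a neighbouring cell. The freed intracellular domain joins the DNA-binding protein RBPJ and a Mastermind coactivator in the nucleus and switches on targets such as the HES and HEY families, which are basic helix-loop-helix repressors. In mesenchymal progenitors the pathway is known for restraining bone and fat formation, and HES1 protein also represses its own gene.

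Normalised counts are given on the CPM scale (reads relative to library size), and the libraries held between 13605555 and 26658725 reads assigned to genes. Tnfaip6 was checked first as the targeted gene. It stood at 6.04 and 3.21 in the wild type (C1, then SE) and at 1.65, 2.38 and 1.36 in the knockout (C1, C2, then SE), an order kept below. The knockout values were all lower but not at 0, and the difference was not past the threshold (log2 fold change -1.13, limma adjusted p = 0.0578). It passed in 4 of 17 alternatives, namely with the suffix as a term (adjusted p = 0.00943), with C libraries only (0.0296), with length and GC corrected (0.0197) and without a variance trend (0.0495), and the highest was 0.364, without wild-type C1. Which exons these reads cover was not analysed here. Of 10 stromal markers, 9 had a row and their summed value ran from 5325 to 6072 over the 5 libraries, most of it Vim and Itgb1, and Thy1 was not analysed here. Pdgfra, Eng, Itgb1 and Vim overlapped between genotypes, while the other single markers did not, which was so for 58.8% of all genes tested. Nt5e stood at 77.4 and 121 in the wild type and between 0.358 and 0.946 in the knockout, Cd44 at 385 and 325 against 28.6 to 40.5, and Ly6a at 412 and 284 against 17.3 to 48.4. Pdgfrb and Vcam1 were the other way, at 49.0 and 145 against 240 to 860.0 and at 135 and 92.8 against 166 to 269.

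Receptors and ligand were higher in the SE libraries, and the targets lower, in both genotypes. Notch1, Notch2, Notch3 and Jag1 rose in SE against C by 1.41 to 2.12 on the log2 scale, and Hes1 and Hey1 fell, in a limma fit with genotype as a term. Those calls took in 4 of 6 members as higher, against 17.4% of all 12484 genes tested, and 2 of 6 as lower, against 15.5%. By plain ratios within each genotype, SE was at least 2-fold above C in both genotypes for 3 members, Notch1, Notch3 and Jag1, which was so for 7.16% of all genes. It was at least 2-fold below C in both genotypes for 2 members, Hes1 and Hey1, which was so for 0.857% of all genes. The SE comparison rests on 2 SE and 3 C libraries, and without knockout SE limma called 0 of all genes, with 1889 at an unadjusted p under 0.05.

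The 3 genes that passed the 2-fold mark upward together are shown by sequence upstream of their transcript start, so that it can be read beside their values. The stretches are the parts outside annotated exons of RefSeq's 250 upstream bases, on GRCm38.p6. Of the 7 members, 4 had an entry (these 3 and Notch2). They are written 5′ to 3′ on the gene's strand, which is the minus strand for all 3, and capitals mark the N box. Notch1 is read from chr2:26503825-26504072, Notch3 from chr17:32166891-32167140 and Jag1 from chr2:137116645-137116770. The Notch1 stretch lies inside the annotated span of the gene (26457903 to 26516663), so its transcript start is not the outermost one. The Notch3 stretch begins upstream of the annotated 5′ end of that gene (32166852). The Jag1 stretch runs only from -250 to -125 of the transcript start.
Notch1: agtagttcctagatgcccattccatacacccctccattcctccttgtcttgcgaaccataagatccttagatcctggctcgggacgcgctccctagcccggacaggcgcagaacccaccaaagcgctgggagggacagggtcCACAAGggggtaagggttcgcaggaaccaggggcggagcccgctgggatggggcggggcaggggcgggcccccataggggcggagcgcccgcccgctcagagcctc
Notch3: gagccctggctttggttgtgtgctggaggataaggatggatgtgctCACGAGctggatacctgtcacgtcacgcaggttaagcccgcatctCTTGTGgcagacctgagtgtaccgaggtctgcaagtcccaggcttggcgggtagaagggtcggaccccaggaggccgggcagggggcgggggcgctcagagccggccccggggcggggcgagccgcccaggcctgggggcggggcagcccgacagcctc
Jag1: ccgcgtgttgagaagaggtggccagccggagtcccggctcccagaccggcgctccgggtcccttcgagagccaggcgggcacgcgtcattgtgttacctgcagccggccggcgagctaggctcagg

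In these windows 4 motifs were searched on both strands. They were the RBPJ core TGGGAA, the N box CACNAG bound by HES-type repressors, the E box CACGTG bound by HEY-type and other helix-loop-helix factors, and the TEAD core GGAATG, which shares the letters GGAA with the RBPJ core. The N box lay at -108 from the transcript start in Notch1, at -204 and -159 in Notch3 and at -247 in Notch2, and in the Jag1 window these letters did not occur. Of 32851 promoter windows of 250 bases, 36.7% held an N box, so its presence in 3 of 4 windows is a description only. The TEAD core lay at -233 and -216 in Notch1 and is in 12.6% of all windows. Neither the RBPJ core (21.6% of all windows) nor the E box (6.02%) occurred in the 4 windows.

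Notch1, the best studied receptor of the family, is annotated at 26457903 to 26516663 on the minus strand of chromosome 2 (GRCm38). The normalised count of Notch1 was 1.99 (C1) and 5.28 (SE) in wild-type libraries, and 1.55 (C1), 1.89 (C2) and 14.9 (SE) in the knockout. The 3 C libraries lay close together, both SE libraries lay above them, and the knockout SE library was the highest. SE exceeded C 2.66-fold in the wild type (exact 95% interval 1.87 to 3.82) and 8.57-fold in the knockout (6.61 to 11.2), with intervals that cover counting error only. The fitted SE against C difference was 2.12 on the log2 scale (standard error 0.39, limma adjusted p = 0.0116). Non-coding transcripts on the opposite strand overlap the gene, and whether the authors' counting used the strand was not stated.

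Notch2 was the most abundant of the 3 receptors per length in every library. The gene lies at 98013527 to 98150361 on the plus strand of chromosome 3. Wild-type libraries held a normalised count of 12.3 (C1) and 18.2 (SE), and knockout libraries 4.14 (C1), 4.84 (C2) and 20.1 (SE). Both SE values were above all C values, and the knockout C libraries stood lowest. SE exceeded C 1.48-fold in the wild type (1.27 to 1.74) and 4.45-fold in the knockout (3.71 to 5.33), and the fitted difference was 1.41 on the log2 scale (standard error 0.36, limma adjusted p = 0.0267), a call lost when the variance trend was left out (adjusted p = 0.0536).

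Notch3, a receptor best known from pericytes and vascular smooth muscle, was the lowest member per exon length in every library but knockout SE, where Hey1 was lower. It lies at 32120820 to 32166852 on the minus strand of chromosome 17. In the wild type the normalised count was 0.122 in C1 (3 reads) and 1.86 in SE (36 reads). In the knockout it was 0.235 in C1, 0.416 in C2 and 2.44 in SE (5, 11 and 34 reads). Both SE libraries were high, and the C libraries held only a few reads. SE exceeded C 15.3-fold in the wild type (4.85 to 77.8) and 7.26-fold in the knockout (3.90 to 14.1). The fitted difference was 1.88 on the log2 scale (standard error 0.29, limma adjusted p = 0.00739). It was 3.20 with edgeR on the recovered reads, and it was not called without wild-type C1 (limma adjusted p = 0.061). An annotated antisense transcript overlaps Notch3.

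Jag1 encodes Jagged1, a membrane-bound ligand of these receptors, at 137081456 to 137116644 on the minus strand of chromosome 2. Normalised counts were 2.72 (C1) and 12.8 (SE) in wild-type libraries, and 3.10 (C1), 2.38 (C2) and 12.9 (SE) in knockout libraries. The values fell into a low set of 3 C libraries and a high pair of SE libraries, with nearly the same level in both genotypes. SE exceeded C 4.73-fold in the wild type (3.60 to 6.29) and 4.77-fold in the knockout (3.78 to 6.03). The fitted difference was 2.05 on the log2 scale (standard error 0.24, limma adjusted p = 0.00403).

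Hes1, the best known direct target of the receptors, went the other way. The gene lies at 30064384 to 30067796 on the plus strand of chromosome 16. It stood at a normalised count of 260 (C1) and 19.0 (SE) in wild-type libraries, and at 226 (C1), 155 (C2) and 19.0 (SE) in the knockout. The 3 C libraries were all high and the 2 SE libraries were equal at a low level. C exceeded SE 13.7-fold in the wild type (12.4 to 15.3) and 9.82-fold in the knockout (8.69 to 11.1), and the fitted difference was -3.47 on the log2 scale (standard error 0.20, limma adjusted p = 0.00316). Among the 12484 genes tested, 1 had a lower SE against C value than Hes1, the early response gene Fos (-3.57), which was named after its value was seen.

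**Figure D1:**
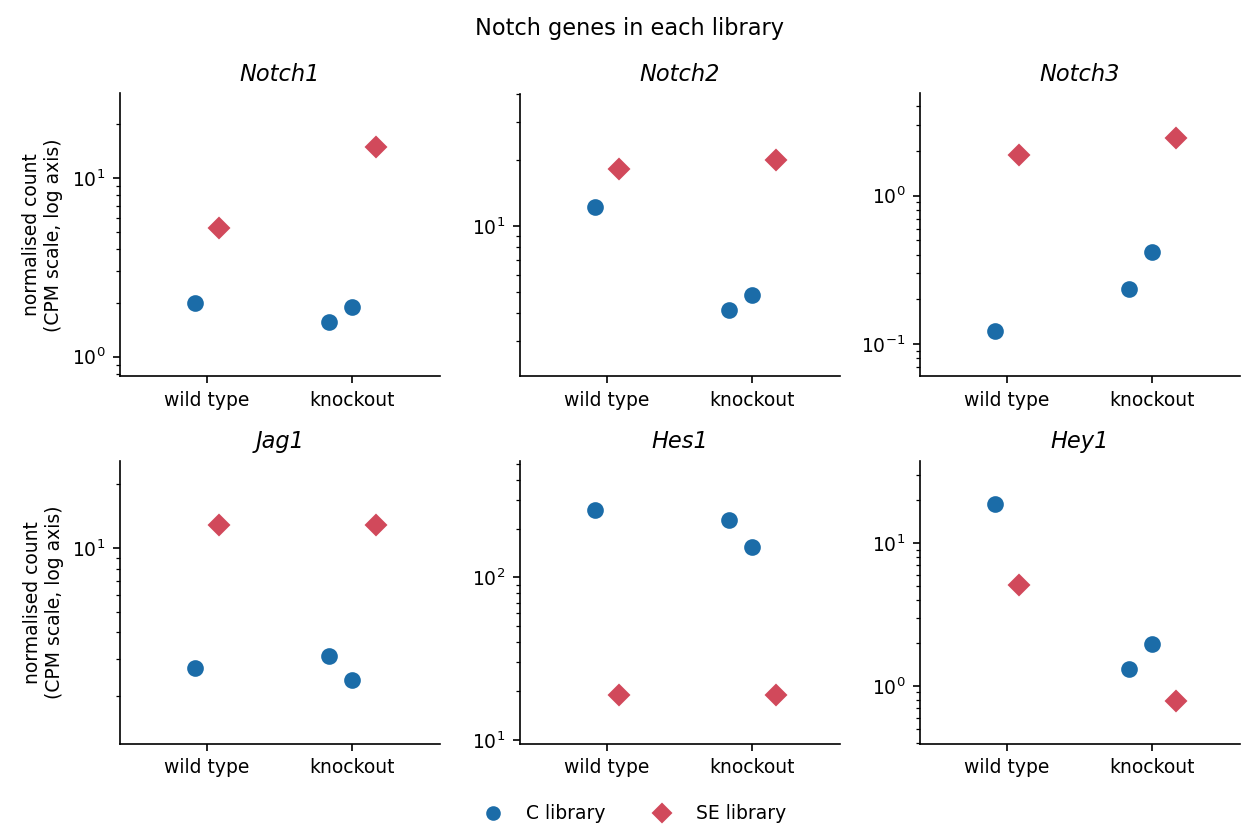
Normalised count (CPM scale, log axis) of each of the 6 members in each of the 5 libraries, with wild type and knockout set apart. Notch1, Notch2, Notch3 and Jag1 were highest in the SE libraries of both genotypes, Hes1 was at 19.0 in both SE libraries and between 155 and 260 in the C libraries, and Hey1 was lower in every knockout library than in either wild-type library.

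Hey1, a target whose protein pairs with HES proteins at E boxes, differed by both suffix and genotype. It lies at 8663359 to 8667256 on the minus strand of chromosome 3. Hey1 stood at a normalised count of 18.8 (C1) and 5.08 (SE) in wild-type libraries, and at 1.32 (C1), 1.97 (C2) and 0.788 (SE) in the knockout. Both wild-type values were above all knockout values, and within each genotype SE was lowest. C exceeded SE 3.70-fold in the wild type (2.97 to 4.65) and 2.13-fold in the knockout (1.13 to 4.43). The fitted SE against C difference was -1.18 on the log2 scale (standard error 0.34, limma adjusted p = 0.0399), a call lost without a variance trend (adjusted p = 0.0535) and without wild-type C1, wild-type SE or knockout SE (adjusted p from 0.292 to 0.326).

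**Figure D2:**
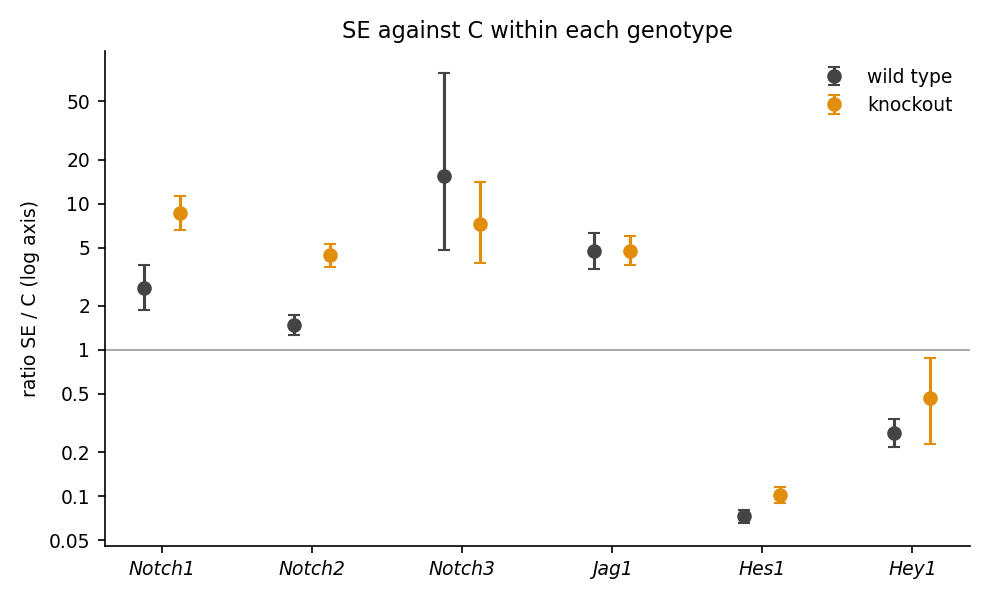
Ratio of the SE to the C value of each member within each genotype (log axis), with exact 95% intervals from read counts. Notch1, Notch2, Notch3 and Jag1 lie above a ratio of 1 and Hes1 and Hey1 below it in both genotypes, and the intervals of Jag1 are nearly the same in wild type and knockout.

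Whether the SE against C difference itself differed between genotypes was tested as an interaction. None of the members passed, and limma called 0.0% of all genes, with 327 at an unadjusted p under 0.05 and 0 called by edgeR on the recovered reads (361 unadjusted). Notch1 and Notch2 had larger SE differences in the knockout by 1.58 and 1.5 on the log2 scale, with limma adjusted p = 1.00 for both (0.0286 and 0.0301 unadjusted). Jag1 had an interaction of 0.00 and Notch3 one of -0.09. This test had 1 residual degree of freedom, so a missed threshold does not show that the genotypes acted alike.

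The receptors' makeup also differed between libraries. On values divided by exon length, the summed level of the 3 receptors was 1.29 (C1) and 2.29 (SE) per kilobase in wild-type libraries, and 0.522 (C1), 0.633 (C2) and 3.22 (SE) in knockout libraries. Notch2 made up 88.1% and 73.8% of that sum in wild-type C1 and SE, 73.5% and 70.9% in knockout C1 and C2, and 58.1% in knockout SE. Notch1 made up 10.8% and 16.2% in the wild type in that order, and 20.9%, 21% and 32.6% in the knockout. Notch2 thus led throughout, and the Notch1 share was highest in the knockout SE library. The exon lengths used join all annotated exons of a gene. For Notch1 this was 14232 bases against 9488 in its longest transcript, and for Notch2 10782 against 10500. The Notch1 share would be larger by longest transcript, and that share was not computed. Per kilobase, Hes1 was the most abundant member in all 5 libraries, at 128 in wild-type C1 and 9.32 in knockout SE. In wild-type C1 it was followed by Hey1 at 5.75, Notch2 at 1.14, Jag1 at 0.466, Notch1 at 0.140 and Notch3 at 0.0150 per kilobase. In knockout SE the order was Jag1 at 2.21, Notch2 at 1.87, Notch1 at 1.047, Notch3 at 0.301 and Hey1 at 0.241. Within a genotype the C and SE values of Jag1, Notch2 and Notch1 spread over more than the gap between neighbours in that order in the knockout.

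Long transcripts were higher in SE and short ones lower across the whole table, and the members fell on both sides of that trend. Over 12470 genes with annotated transcripts, Spearman's rho between the longest transcript's length and the SE against C difference was 0.62, a description across genes that share these libraries, and it was -0.08 for knockout against wild type. Genes were split into 10 classes of equal size by that length. In the class of the longest, which held Notch1, Notch2 and Notch3 with transcripts of 9488, 10500 and 8016 bases, the median difference was 0.55 on the log2 scale and 38.6% were called higher. In class 2 from the shortest, which held Hes1 with 1468 bases, the median was -0.47 and 35.7% were called lower.

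**Figure D3:**
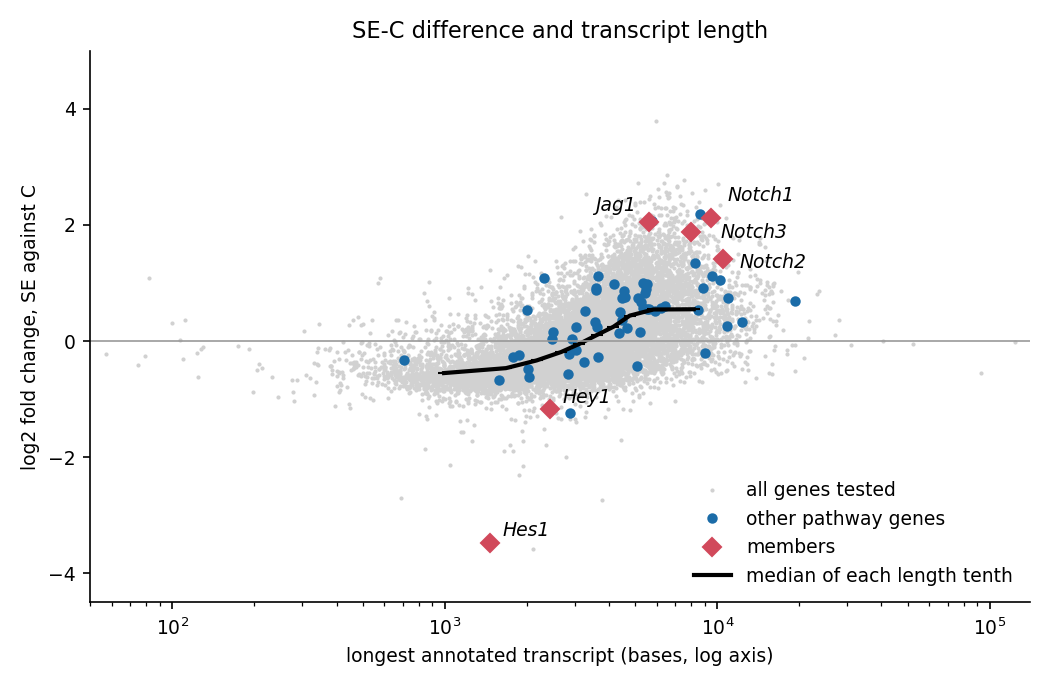
SE against C difference (log2) of each gene tested against the length of its longest annotated transcript in bases (log axis), with the median of each of 10 length classes as a line, other pathway genes in blue and members as diamonds. Notch1, Notch3 and Jag1 lie near the top of the genes of their length and Hes1 lies far below genes as short.

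Set against genes of like length, the members still lay toward the ends. Of 1247 genes in the class of the longest, 26 had a higher SE difference than Notch1, 49 than Notch3 and 167 than Notch2. Jag1 (5612 bases) was exceeded by 32 of 1247 genes in its own class. No gene in the length class of Hes1, of 1247, had a lower value, and 8 of 1251 did in that of Hey1 (2423 bases). After length and GC content were fitted out of each library with splines, an alternative chosen after seeing the data, the share of all genes called was 7.92% higher and 5.53% lower.

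With that correction 1 member stayed higher, Jag1, and 1 stayed lower, Hes1. Jag1 was then at 1.59 on the log2 scale (limma adjusted p = 0.0144) and Hes1 at -2.85 (adjusted p = 0.0124). Notch1 was at 1.14 (adjusted p = 0.0719), Notch2 at 0.63 (adjusted p = 0.197), Notch3 at 0.80 (adjusted p = 0.124) and Hey1 at -0.88 (adjusted p = 0.141). Each kept its sign and none of these 4 was called. Depth moved with the suffix too, with 13605555 and 17986301 reads in the SE libraries and 21991615 to 26658725 in the C libraries, and its part in these differences was not tested.

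**Figure D4:**
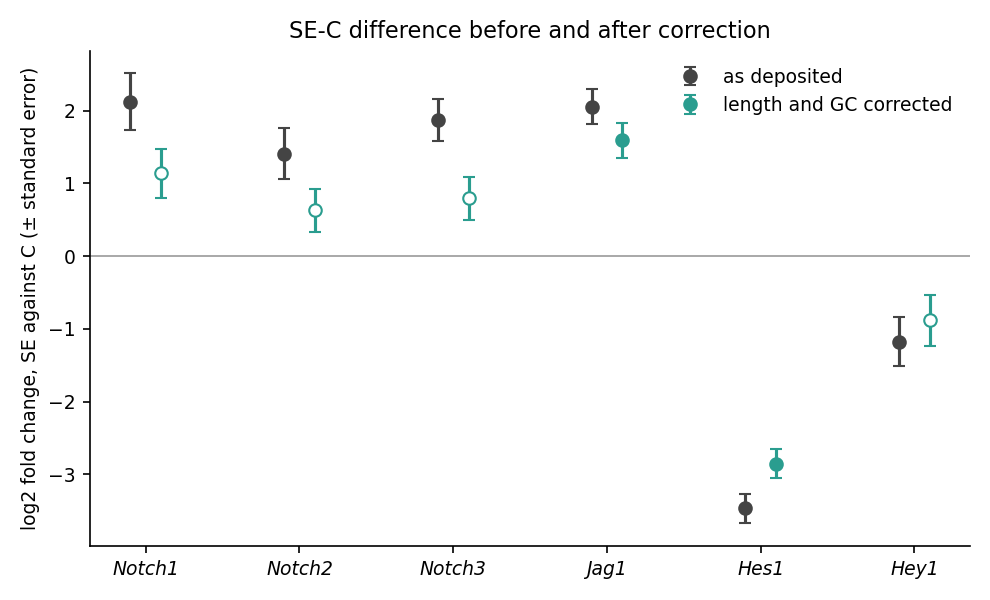
SE against C difference (log2, with its standard error) of each member before and after correction for transcript length and GC content, with filled symbols for limma adjusted p under 0.05 and open ones otherwise. Jag1 and Hes1 remain filled after correction, while Notch1, Notch2, Notch3 and Hey1 move toward 0 and become open.

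Between genotypes, Hey1 was the only member called in the fit of knockout against wild type. It fell from 11.9 ± 9.68 (SD, n = 2) to 1.36 ± 0.591 (n = 3), 8.78-fold lower in the knockout, with a log2 fold change of -2.53 (standard error 0.57, limma adjusted p = 0.0165). The wild type exceeded the knockout 11.2-fold among C libraries (8.81 to 14.4) and 6.44-fold among SE libraries (3.45 to 13.3). The call was lost without wild-type C1 (log2 fold change -1.64, adjusted p = 0.0933), the log2 fold change was -3.42 without wild-type SE, and the call was kept in the other 17 alternatives, which include the length and GC correction (log2 fold change -2.69, adjusted p = 0.00413). Of 6 members, 1 was lower and 0 higher, against 17.1% and 17.2% of all genes, and 1 had groups that did not overlap, against 58.8% of all genes. The share called lower is thus near the background.

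The receptors, Jag1 and Hes1 overlapped between genotypes. Notch1 averaged 3.63 ± 2.33 (SD, n = 2) in wild-type and 6.12 ± 7.61 (n = 3) in knockout libraries (log2 fold change 0.16, standard error 0.91, limma adjusted p = 0.915). The wild-type C library was 1.14 times the knockout C libraries (0.785 to 1.64), whereas knockout SE was 2.82 times wild-type SE (2.22 to 3.61). Notch2 averaged 15.3 ± 4.21 and 9.71 ± 9.04 (log2 fold change -0.95, standard error 0.67, adjusted p = 0.314). It was 2.71 times higher in the wild type among C libraries (2.27 to 3.24) and at 0.905 of the knockout among SE libraries (0.772 to 1.06). Without knockout SE, limma called Notch2 lower in the knockout (log2 fold change -1.64, adjusted p = 0.00706), and with C libraries only it did so too (adjusted p = 0.0147). The other 16 of 18 alternatives made no call.

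Notch3 averaged 0.993 ± 1.23 in wild-type and 1.03 ± 1.22 in knockout libraries (log2 fold change 0.05, standard error 0.76, adjusted p = 0.969 by limma). Jag1 averaged 7.78 ± 7.16 and 6.13 ± 5.87 (log2 fold change -0.34, standard error 0.84, adjusted p = 0.789). Hes1 averaged 140 ± 171 and 133 ± 105 (log2 fold change 0.31, standard error 1.36, adjusted p = 0.887). For all 3 the spread between C and SE libraries of one genotype was larger than the difference between genotypes. Among SE libraries alone the wild-type to knockout ratio was 0.996 for Jag1 (0.819 to 1.21) and 0.998 for Hes1 (0.850 to 1.17). Among C libraries it was 1.00 for Jag1 (0.736 to 1.36) and 1.40 for Hes1 (1.35 to 1.44), intervals that again cover counting only.

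The wider pathway was read from a list of 81 genes ordered by role, of which 65 had a row and 64 were tested. In knockout against wild type 11 were called higher (17.2% of all genes) and 6 lower (17.1% of all genes), with a median log2 fold change of 0.13 against -0.09 for all genes. With the suffix as a term these counts were 20 and 11 of 64, where 3530 and 4038 of all 12484 genes were called. In SE against C 25 were called higher (17.4% of all genes) and 5 lower (15.5% of all genes), with a median of 0.53 against -0.04. The list's median longest transcript was 4593 bases against 3354 for all genes, and with length and GC fitted out 8 were higher (7.92% of all genes) and 4 lower (5.53% of all genes, near the list's share), with a median of 0.18 against 0.06. The 8 were Jag1, Lfng, Tle3, Ctbp1, Adam10, Adam17, Itch and Dtx3, and the 4 were Hes1, Hes6, Snw1 and Ncor1. Without the members, 21 of 58 were higher in SE before correction and 3 lower, namely Hes6, Snw1 and Hdac1.

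Among the other ligands and atypical ligands, Dner, a membrane protein reported to bind Notch in the nervous system, was the only one called between genotypes in the fit with genotype alone. It stood at 7.09 and 5.23 in the wild type, at 0.141 in knockout C1 and at 0 in both other knockout libraries. The wild type held 276 reads and the knockout 3, a ratio of read rates of 129 (43.7 to 629), and the log2 fold change was -3.60 (limma adjusted p = 0.000306). Dll1, a canonical ligand, stood at 0.365 and 1.04 in the wild type and at 1.88, 1.40 and 3.51 in the knockout, without overlap and without a call (log2 fold change 1.19, adjusted p = 0.0742). Dll1 was called higher with the suffix as a term (adjusted p = 0.00597) and with length and GC corrected (0.0341), and the highest adjusted p was 0.394, without wild-type C1. Dlk2, an atypical ligand, ranged from 18.8 to 41.9 and overlapped between genotypes. Dlk1, its relative, was too low to be tested. It stood at 1.90 and 0.829 in the wild type (63 reads) and at 0.0940, 0.189 and 0.573 in the knockout (15 reads), without overlap.

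Of the nuclear complex, 1 gene was called higher and 2 lower in the knockout among 9 tested, near the 17.2% and 17.1% of all genes. Rbpj, the DNA-binding partner of the cleaved receptor, stood at 28.2 and 50.2 in wild-type libraries and at 5.22, 5.07 and 10.3 in knockout C1, C2 and SE. The genotypes did not overlap, and SE was higher than C within each. Rbpj was 5.70-fold lower in the knockout (log2 fold change -2.44, standard error 0.43, limma adjusted p = 0.00653), a call lost without wild-type SE (adjusted p = 0.0532). Maml2, a Mastermind coactivator, stood at 4.58 and 3.47 in the wild type and at 17.5, 13.5 and 39.1 in the knockout (log2 fold change 2.26, adjusted p = 0.0135), a call lost without wild-type SE (adjusted p = 0.0726). Kat2a, a histone acetyltransferase, was lower in the knockout (log2 fold change -1.37, adjusted p = 0.0123), a call lost without wild-type SE (adjusted p = 0.0952) or knockout C2 (adjusted p = 0.0514). In SE against C 4 of the 9 were called higher (Rbpj, Maml3, Ep300 and Kat2a) and 1 lower (Snw1), against 17.4% and 15.5% of all genes. After correction for length and GC 0 were called higher and 1 lower, Snw1, against 7.92% and 5.53% of all genes. Rbpj was at 0.89 in SE against C (limma adjusted p = 0.0168, and 0.0748 after that correction). Antisense transcripts overlap Rbpj and a gene on the opposite strand overlaps Maml2.

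The Groucho-type corepressors, which HES and HEY proteins recruit, split by member. Tle1 stood at 137 and 143 in the wild type and at 18.9, 21.6 and 23.4 in the knockout, 6.59-fold lower (log2 fold change -2.70, limma adjusted p = 0.000373). Tle2 stood at 25.5 and 32.2 in the wild type and at 91.8, 117 and 160 in the knockout, 4.27-fold higher (log2 fold change 2.05, adjusted p = 0.00307). Both calls held in all 18 alternatives, and an antisense transcript overlaps each gene. These were the 2 called of 13 corepressors tested, against 17.2% higher and 17.1% lower of all genes. In SE against C 5 of the 13 were called higher, among them Tle3, Tle4, Ctbp1 and Kdm5a, against 17.4% of all genes. Hdac1 was the 1 called lower, against 15.5%. After correction for length and GC 2 were called higher and 1 lower, against 7.92% and 5.53% of all genes. Tle3 had the largest SE difference of the 13 (log2 fold change 2.18, adjusted p = 0.00719, and 1.43 with adjusted p = 0.0247 after correction).

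Of 10 genes that cleave or help to cleave the receptor, 4 were called higher in the knockout and 0 lower, against 17.2% and 17.1% of all genes. Psen2, a catalytic subunit of gamma-secretase, stood at 9.24 and 6.53 in the wild type and at 31.5, 54.9 and 29.4 in the knockout (log2 fold change 2.18, limma adjusted p = 0.00545). Aph1b and Aph1c, further gamma-secretase subunits, were called higher as well (log2 fold changes 1.62 and 2.26), but they are near-identical copies that can share reads, so their values are uncertain. The call of Aph1b was lost without wild-type C1, wild-type SE or knockout C2 (adjusted p from 0.0502 to 0.128). Of the sheddases, Adam10 and Adam17 were called in SE against C and not between genotypes, and after correction were at 0.62 (adjusted p = 0.026) and 0.56 (adjusted p = 0.0471). Furin, the convertase that matures the receptor, was called higher in SE (log2 fold change 2.07, adjusted p = 0.0277) but not after correction (adjusted p = 0.128). The Furin call was kept in 10 of 16 alternatives, and lost without a variance trend and with DESeq2. Knockout C1 and C2 differed for Furin, at 26.2 and 104, and C2 was above wild-type SE at 92.3.

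Lfng, the Fringe glycosyltransferase that alters which ligands a receptor answers to, was higher in the knockout. The normalised count was 0.405 (C1) and 1.35 (SE) in wild-type libraries, and 23.4 (C1), 22.8 (C2) and 51.1 (SE) in knockout libraries. Every knockout library was above both wild-type libraries, and SE was highest within each genotype. Lfng was 37.0-fold higher in the knockout (36 against 1812 reads, log2 fold change 4.56, standard error 0.50, limma adjusted p = 0.00102), a call that held in all 18 alternatives. Its SE against C difference was 1.09 (adjusted p = 0.0134) and 1.08 after correction (adjusted p = 0.0239). Poglut1, which adds glucose to the receptor's EGF repeats, was also called higher in the knockout (log2 fold change 0.79, adjusted p = 0.0236), a call lost without any 1 library other than knockout SE (adjusted p from 0.0716 to 0.145).

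Among 14 ubiquitin ligase, endocytosis and turnover genes, 2 were called higher in the knockout and 0 lower, against 17.2% and 17.1% of all genes, a share of higher calls near the background. Numb, an endocytic inhibitor of the receptor, was higher by 1.01 on the log2 scale (limma adjusted p = 0.0267) and Dtx3l, a Deltex-type ligase that overlaps Parp9 on the opposite strand, by 1.49 (adjusted p = 0.0351). Both calls were lost without wild-type C1 (adjusted p = 0.166 and 0.171), wild-type SE (0.0852 and 0.0882) or knockout C2 (0.071 and 0.11), and that of Numb without knockout C1 (0.0715). In SE against C 7 of the 14 were called higher, against 17.4% of all genes, among them Itch, a ligase that acts on Notch (log2 fold change 1.01, adjusted p = 0.00662). Itch and Dtx3 were the 2 called after correction, and were named after their values were seen. Of 4 matrix and secreted modulators, Mfap5, a microfibril protein that can bind Notch1, stood at 2.43 and 4.14 in the wild type and at 258, 175 and 181 in the knockout (log2 fold change 5.77, adjusted p = 8.63e-05). Ccn3, a secreted protein reported to bind the Notch receptor and listed under its older symbol Nov, stood at 75.4 and 35.5 in the wild type and at 3.24, 16.1 and 2.58 in the knockout (log2 fold change -3.18, adjusted p = 0.0205, and 0.107 without wild-type C1).

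**Figure D5:**
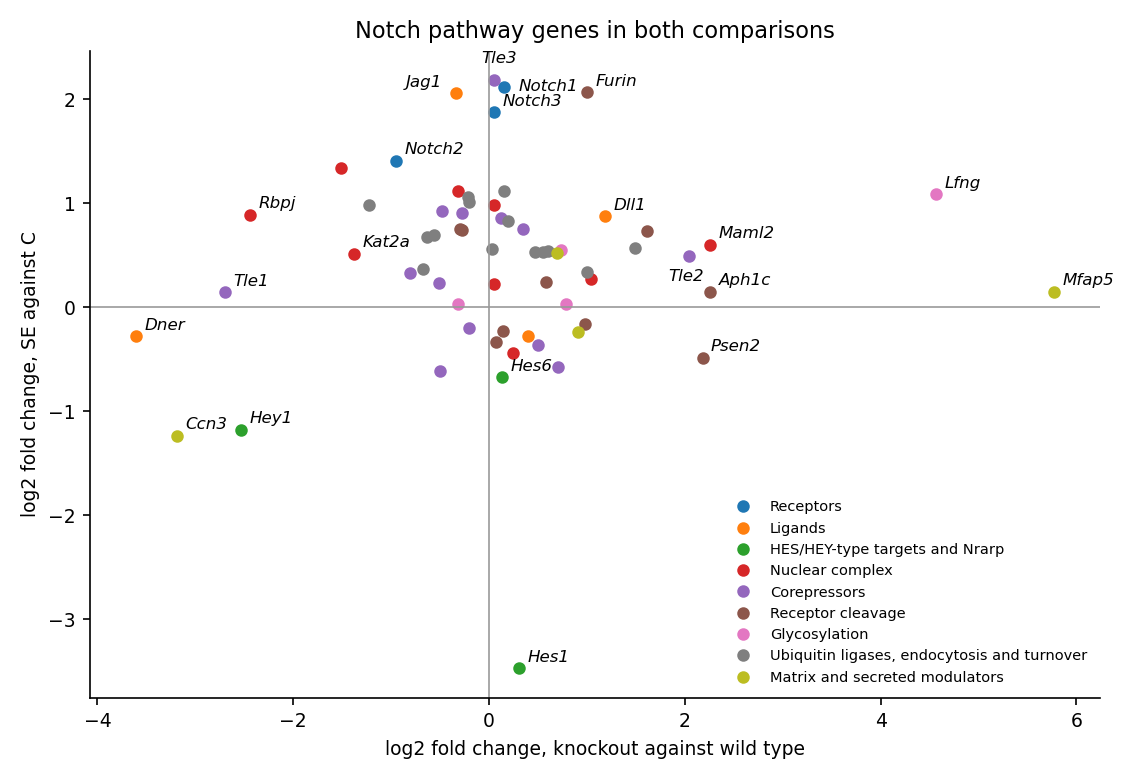
Log2 fold change of knockout against wild type (horizontal) and of SE against C (vertical) for the 64 tested pathway genes, coloured by role. Jag1, Notch1 and Notch3 lie near 0 on the horizontal axis and near 2 on the vertical one, Hes1 lies lowest, and Lfng and Mfap5 lie far to the right.

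The HES family had 1 more measured gene. Hes6, whose protein can block HES1, stood at 120 (C1) and 71.0 (SE) in wild-type libraries, and at 110 (C1), 123 (C2) and 75.7 (SE) in knockout libraries. Its C libraries were all above its SE libraries, as for Hes1, whereas for Hey1 this was so only within each genotype. The SE against C difference of Hes6 was called (log2 fold change -0.67, limma adjusted p = 0.0113, and -0.60 with adjusted p = 0.0283 after correction). The call was lost without wild-type C1 (adjusted p = 0.096), wild-type SE (0.0934) or knockout SE (0.325). All 3 HES and HEY genes tested were thus called lower in SE, against 15.5% of all genes, and 2 of them after correction, against 5.53%. Their transcripts are short, and in their length classes 35.7% (Hes1 and Hes6) and 15.5% (Hey1) of genes were called lower before correction. Between genotypes Hes6 was not called (log2 fold change 0.13, adjusted p = 0.791).

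The genes whose pattern over the 5 libraries was most like each member's were found by the root mean square difference of centred log2 values, among tested genes with a mean of at least 5. Nearest to Notch1 were the corepressor Tle3 (0.0766) and the fibronectin gene Fn1 (0.116), and nearest to Notch2 were Trib3 (0.0995) and Smad3 (0.134). Heatr5b (0.0836) and Adamtsl4 (0.0951) were nearest to Notch3, and Ccdc157 and Scd2 (0.118 each) to Jag1. Hes1 had no gene as close. Its nearest were Fosb (0.553) and Cxcl1 (0.753), both known as early response genes. Fosb stood at 15.7 (C1) and 0.881 (SE) in wild-type libraries and at 16.5 (C1), 13.6 (C2) and 3.08 (SE) in knockout libraries. For Hey1 the nearest were Bpgm (0.305) and Trmo (0.337).

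Position on the chromosome was also read beside the values. Notch1 and Jag1 lie on the chromosome of Tnfaip6, 25.5 and 85.0 megabases from it. The 31 tested genes up to 25 on each side of Hey1 had a median knockout against wild type log2 fold change of -0.24. That of Hey1 was -2.53. With up to 10 on each side the neighbours' median was 0.245. Around Hes1 the medians were 0.72 (25) and 0.64 (10), above the value of Hes1 itself. In SE against C the medians of the neighbours up to 25 on each side ran from -0.32 around Hey1 to 0.04 around Hes1.

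Markers of other cell types stood at other levels in each genotype, untested here. The summed value of 7 of 10 mural markers was 95 and 122 in wild-type libraries and 6607, 4829 and 3105 in knockout C1, C2 and SE. Acta2 made up most of it in the knockout, while Cspg4 went the other way, at 28.0 and 70.6 in wild-type libraries and 0.454 to 1.79 in the knockout. The 7 adipocyte markers summed to 79.2 and 51.1 in the wild type and to 5063, 10581 and 4387 in the knockout. The 3 of 8 epithelial and mesothelial markers with a row summed to 321 and 368 in the wild type and to 5.88, 3.63 and 2.51 in the knockout, mostly Msln in the former and Krt19 in the latter. Haematopoietic markers (4 of 9) summed to between 50.1 and 94.4 and endothelial ones (2 of 8) to between 0.376 and 3.80, and Pecam1, Cdh5 and Ptprc were not analysed here. Within these sums Lyz2 stood at 0.162 and 0 in wild-type libraries against 24.4 to 34.2 in the knockout, Csf1r at 0.0405 and 0.518 against 3.73 to 9.50, and Cd14 at 89.2 and 63.8 against 11.3 to 14.04. Erg stood at 1.66 and 1.40 in wild-type libraries and at 0 in the knockout, and Vwf was 0.0405 and 0 against 0.376 to 3.80. Their part in the differences of Hey1, Rbpj, Lfng, Mfap5 and the other genotype calls was not tested, and in these bulk libraries fewer cells of a type and less RNA per cell cannot be told apart. The part of these markers in the SE against C differences, that of Hes1 among them, was not tested either.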

How the data were processed

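Stranded poly(A) RNA libraries were made from mouse mesenchymal stem cells and read on 1 end over 75 bp, per the labels' protocols. The submitters' processing notes name STAR 2.5, featureCounts 1.5.2 and edgeR. Genome build and annotation are not given in the sources used here. The deposited values are a signal made by the authors, namely reads per gene relative to a library size, on the CPM scale. The implied library sizes were proportional to those of edgeR's TMM scaling (coefficient of variation of the ratio 2.1e-10%), so the values already carried it. Every column stepped by the value of 1 read. Whole reads were recovered for 100% of values, with a tolerance of 0.02 reads, and numbered 13605555 to 26658725 per library. The lowest maximum of any gene was 0.984, and genes below that were not analysed here. The columns name the genotype of a library but no replicate number, and no batch or date is given.

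The main test was limma 3.58.1 (eBayes with a trend, two-sided) on log2 of the value plus 0.5, over the 12484 genes that reached 1 in 2 or more libraries, with Benjamini-Hochberg adjustment over all of them and a threshold of 0.05. Fold changes on that scale understate changes of low genes. Folds between genotypes are ratios of group means. Genotype alone left 3 residual degrees of freedom, SE against C with genotype as a term left 2 and the interaction 1. Ratios within a genotype or suffix are ratios of read rates with exact 95% intervals.

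Alternatives were a further TMM scaling, median-of-ratios scaling, pseudocounts of 0.1 and 1, a filter at 5 and none. Others were eBayes with robust variance and with no trend, and edgeR 4.0.16 (quasi-likelihood) and DESeq2 1.42.0 on the recovered reads. The suffix as a term, C libraries only and leaving out each library were also run. Splines of 5 degrees of freedom on transcript length and GC content were an alternative chosen after seeing the data. Coordinates, lengths and GC content were looked up by Ensembl identifier in GENCODE M21 (GRCm38), where 12607 genes had an entry. The fits were tested on simulated data, with R 4.3.3 and Python 3.11.15.

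The members, lists and tests were chosen with earlier results of these data known. Genes were named by a rule that took Tnfaip6, the members, all receptors, ligands and HES or HEY genes with a row, up to 4 genes of each role with the smallest p for knockout against wild type among called genes, and the 2 most like genes of each member. Single markers and the pathway genes named only for SE against C were named after their values were seen, as was Fos. A few genes of the list are not reported here. Listed genes without a row, among them Notch4, Jag2, Dll3, Dll4, Hes5 and Hey2, were not analysed here.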

Additional observations from a re-analysis of the deposited data

How the results depend on the processing

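No paired analysis was possible because the column names carry no replicate number of the sample titles. With the suffix as a term, 3530 of 12484 genes were higher and 4038 lower in the knockout, and 20 and 11 of the 64 tested pathway genes. Leaving out each library in turn gave 1049 to 2332 higher and 594 to 2632 lower in the knockout, and 0 to 2520 higher and 0 to 2568 lower in SE. With length and GC content fitted out, 988 genes were higher and 690 lower in SE, and 8 of the pathway list were higher. Without a variance trend 812 were lower in SE. The SE counts depended on which library was left out, being 0 in both directions when knockout SE was dropped and highest when knockout C2 was, and the cause was not tested.

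In knockout against wild type, 5 genes that were not called turned direction, and the cause was not tested. With C libraries only, the log2 fold change was -0.17 for Notch1, 0.0035 for Jag1, -0.48 for Hes1 and -0.037 for Hes6. With the suffix as a term it was 0.0044 for Jag1 and -0.27 for Hes1, and with edgeR -0.064 for Hes1. Leaving out each library gave -0.78 to 0.77 for Notch1, -1.36 to 0.69 for Jag1, -1.56 to 2.18 for Hes1 and -0.24 to 0.50 for Hes6. For Notch3 it was -0.91 to 0.44 without wild-type C1, knockout C1 or knockout C2, and without either SE library Notch3 did not pass the filter on low values. No member turned direction in SE against C under the alternatives run. The 3 reads of Notch3 in wild-type C1 and 11 of Hey1 in knockout SE limit their ratios most.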
